A study of Mus musculus with 7 samples.

Results

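The 9 genes described here are receptors that guide B-cell precursors (BCP) out of and into marrow and spleen. They were taken by symbol from a table of 24341 mouse genes, and all 9 were found. By role they are the chemokine receptors Cxcr4, Cxcr5, Ccr7 and Ccr9, the sphingosine 1-phosphate receptor S1pr1, the integrin chains Itga4, Itgb1 and Itgb7, and the hyaluronan receptor Cd44.

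RNA was sequenced from BCP cells sorted by flow cytometry from the spleens of Eμ-Ret mice. All 7 samples came from hemizygous carriers of the transgene on a BALB/c background, so no sample stands for a normal precursor. The transgene is a Ret fusion driven by the immunoglobulin heavy chain enhancer, which acts in the B lineage. The 4 preleukemic samples were taken early in life, before disease was overt, and the 3 leukemic samples from older, moribund animals. The labels give no age in days, no sex, no treatment and no batch. Age and disease therefore cannot be told apart. The labels do not say that each sample is a separate animal, and p-values measure only the spread between these samples.

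Cxcr4 binds Cxcl12 and is known for keeping early B cells in the marrow niche, whereas S1pr1 draws lymphocytes toward the high sphingosine 1-phosphate of blood. Cxcr5 and Ccr7 lead mature B cells to the follicle and the T-cell zone, and Ccr9 leads cells to thymus and gut. The Itga4 chain pairs with Itgb1 to bind Vcam1 and fibronectin, or with Itgb7 to bind Madcam1, and Cd44 binds hyaluronan in the matrix.

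Depth, read from the steps of low values, was 13300000 to 16000000 fragments per sample. Precursor genes were present in both groups. Cd79a, which signals for the B-cell receptor, and Igll1 and Vpreb1, the surrogate light chain, were the highest markers of the 15-gene precursor list. None of the 15 was at the floor in all samples. The summed level of that list was 6632 to 8287 FPKM (fragments per kilobase, scaled to the sequenced total) in preleukemic and 3593 to 5447 in leukemic samples. Of the 15, 4 were called lower, against 6.26% of all genes tested. Among these were Igll1 and Vpreb1 (limma adjusted p = 0.0244 and 0.0226). Igll1 had 1377 to 1631 FPKM in preleukemic and 373 to 934 in leukemic samples. Vpreb1 had 1313 to 1625 and 364 to 913 FPKM. Without overlap, 10 of the 15 were lower, against 17.1% of all genes tested. Genes of other cell types were higher in the leukemic samples. All 13 red cell genes tested were called higher, with sums of 360 to 2539 FPKM in preleukemic and 5304 to 24453 in leukemic samples. For macrophage markers 8 of 12 were called higher (sums 40.5 to 93.6 and 171 to 396 FPKM). For neutrophil markers 4 of 9 were called higher (148 to 854 and 1407 to 1738 FPKM), and for platelet markers 4 of 4 (0.338 to 2.83 and 12.6 to 50.9 FPKM). Preleukemic sample 1 and leukemic sample 2 held the highest red cell sum of their groups. T and NK cell, plasma cell and mature B cell sums overlapped between groups. Of their tested markers, 0 of 8, 1 of 4 and 2 of 7 were called higher, and 0 were called lower. The plasma cell gene was Jchain, at 18.6 to 22.2 FPKM in preleukemic and 81.5 to 143 in leukemic samples (limma adjusted p = 0.00426). H2-Ab1 of the mature B cell list had 42.5 to 66.6 and 78.0 to 138 FPKM (adjusted p = 0.0344). Dendritic cell markers summed to 0.664 to 2.0 FPKM in preleukemic and 5.72 to 8.81 in leukemic samples, without overlap, and 0 of the 6 were tested. Stromal markers other than Pecam1, which blood cells also carry, were below 1 FPKM in all samples, except Pdgfrb (5.88 and 1.39 FPKM in leukemic samples 1 and 3) and Cxcl12 (2.71 FPKM in leukemic sample 2). All 4 platelet markers and the macrophage marker Adgre1 passed the filter on low values only through the leukemic samples, so they had to differ and their calls are no support.

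Of the members tested, only Cd44 passed the test between groups. Its mean FPKM was 3.14 times higher in leukemic BCP cells, while the marrow retention receptor Cxcr4, the most abundant of the 9, had means of 111 and 109 FPKM. S1pr1 was lower in every leukemic sample but missed the threshold, and Cxcr5, Ccr7 and Itgb7 differed widely among the 3 leukemias. A call required an adjusted p under 0.05 (limma on log2(FPKM + 1), Benjamini-Hochberg over the 10541 genes tested). Of the 8 members tested, 1 was called higher, against 8.47% of all genes tested, and 0 were called lower, against 6.26% of all. At an unadjusted p under 0.05 from limma, 2 members were higher (Cd44 and Itgb7) and 1 was lower (S1pr1). The share of all genes at that unadjusted threshold was not computed, but it must exceed the 14.7% of all genes tested that passed the adjusted threshold. This count is therefore a description only. It does not show that members differed more often than other genes. The groups did not overlap for 2 members (Cd44 and S1pr1), against 32.0% of all genes tested. The median log2 fold change of the 8 was -0.05, and that of all genes tested was -0.02. Ccr9 was too low to be tested.

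**Figure D1:**
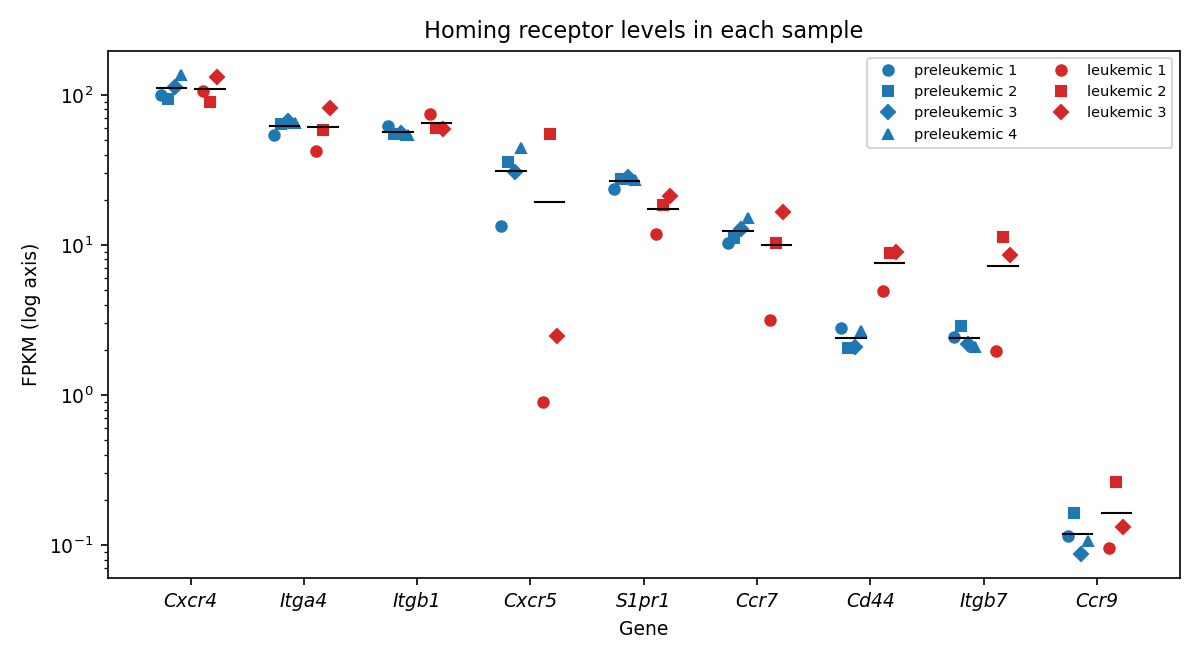
FPKM on a log axis for the 9 homing receptor genes, ordered by mean level. Each point is 1 sample (blue preleukemic, n = 4; red leukemic, n = 3; shape gives the replicate) and black lines are group means. The Cd44 points of the groups are apart, at 2.07 to 2.81 and 4.92 to 8.91 FPKM, and the leukemic points of Cxcr5 spread from 0.892 to 55.0 FPKM.

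Since FPKM is per length, levels can be set side by side between genes. Over preleukemic samples the order was Cxcr4, Itga4, Itgb1, Cxcr5, S1pr1, Ccr7, Cd44, Itgb7 and Ccr9. Ranges of neighbours overlapped for Itga4 and Itgb1, for Cxcr5 and S1pr1, and for Cd44 and Itgb7. The other neighbours were apart in all 4 samples. In leukemic samples only the ends of the order held as firmly: Cxcr4 was above every other member and Ccr9 below every other member in 3 of 3 samples, and Cxcr5 was above S1pr1 in 1 of 3.

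The promoters of Cd44 and Itgb7 are shown because their leukemic means were the highest relative to their preleukemic means. The RefSeq promoter table used here (GRCm38.p6) held entries for 6 of the 9 members. The 250 bases before an annotated start are printed from the minus strand, 5′ to 3′. They lie at chr2:102901666-102901915 for Cd44 and chr15:102231936-102232185 for Itgb7. RefSeq extends Itgb7 to 102233405, so the Itgb7 window lies inside the gene as annotated there. Each GGAA, the core of ETS factor motifs, is in capitals on either strand (as GGAA or TTCC).
Cd44: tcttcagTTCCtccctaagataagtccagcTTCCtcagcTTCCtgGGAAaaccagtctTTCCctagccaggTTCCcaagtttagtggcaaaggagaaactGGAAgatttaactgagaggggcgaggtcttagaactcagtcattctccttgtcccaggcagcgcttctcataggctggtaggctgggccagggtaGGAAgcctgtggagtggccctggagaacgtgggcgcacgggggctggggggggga
Itgb7: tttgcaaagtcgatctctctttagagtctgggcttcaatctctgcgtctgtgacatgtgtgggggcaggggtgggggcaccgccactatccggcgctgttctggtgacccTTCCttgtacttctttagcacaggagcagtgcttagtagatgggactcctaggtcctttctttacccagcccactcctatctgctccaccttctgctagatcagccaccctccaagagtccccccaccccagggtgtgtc

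The Cd44 window held 8 GGAA matches, which do not overlap each other. At least 8 were found in 1.46% of the 27025 promoter windows of the same length, of which 93.4% held at least 1 and whose median was 3. The Itgb7 window held 1. A second motif, CACCC (both strands, counted apart from GGAA), had 4 matches in the Itgb7 window and none in that of Cd44. Of all windows, 2.12% held at least 4 and 51.3% at least 1. Among the other members, Itga4 also held 4 CACCC matches and Itgb1 held 4 GGAA matches. The 2 motifs were picked with the values of these genes known, and a match is a description of letters only.

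Cd44 (chromosome 2, 102811142 to 102901665, GRCm38) was measured at 2.81, 2.07, 2.09 and 2.67 FPKM in preleukemic samples 1 to 4, and at 4.92, 8.89 and 8.91 FPKM in leukemic samples 1 to 3. The groups did not overlap, and the lowest leukemic sample stood above the highest preleukemic one, and leukemic sample 1 was the lowest of its group. Group means were 2.41 ± 0.382 (SD, n = 4) and 7.57 ± 2.30 FPKM (SD, n = 3), a log2 fold change of 1.30 on the log2(FPKM + 1) scale (standard error 0.21, 95% interval 0.80 to 1.80, limma adjusted p = 0.0152). Such separation upward was seen in 14.9% of all genes tested. Macrophages, neutrophils and red cell precursors also carry Cd44, and the sums of their markers were higher in the same samples. Among leukemic samples 1 to 3, sample 1 was lowest for red cell and macrophage sums, as it was for Cd44. Also lowest there were the T and NK cell sums (14.9, 89.3 and 82.2 FPKM) and dendritic cell sums (5.72, 8.71 and 8.81 FPKM). The neutrophil sums were 1526, 1407 and 1738 FPKM, lowest in sample 2. The part of all these cell types in the Cd44 difference was not tested. Without preleukemic sample 1 and leukemic sample 2, Cd44 was still called (log2 fold change 1.23, limma adjusted p = 0.0444), but the red cell sums of the remaining samples still differed, at 360 to 381 against 5304 and 11942 FPKM. It lost the call without preleukemic sample 3 (adjusted p = 0.0531) or sample 4 (0.0551), and with no filter on low values (0.0512). In bulk RNA, more cells of a type and more RNA per cell cannot be told apart.

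The call on Cd44 has little to compare with in its own pathway. Of the 9 genes of hyaluronan synthesis and binding, 2 were tested and neither was called. Hmmr, another hyaluronan receptor that also acts at the mitotic spindle, was measured at 20.9 ± 4.26 FPKM (SD, n = 4) in preleukemic and 28.8 ± 8.06 (SD, n = 3) in leukemic samples (limma adjusted p = 0.236). Hyal2, a hyaluronidase, was at 9.28 ± 0.889 and 11.8 ± 0.382 FPKM (limma adjusted p = 0.0601). Over the 7 samples, the genes most like Cd44 by Pearson's r of log2(FPKM + 1) among those averaging at least 5 FPKM were Grina (0.994) and Rnf123 (0.987). With 7 samples in 2 groups such values are a description, and 341 genes had an r of at least 0.9.

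**Figure D2:**
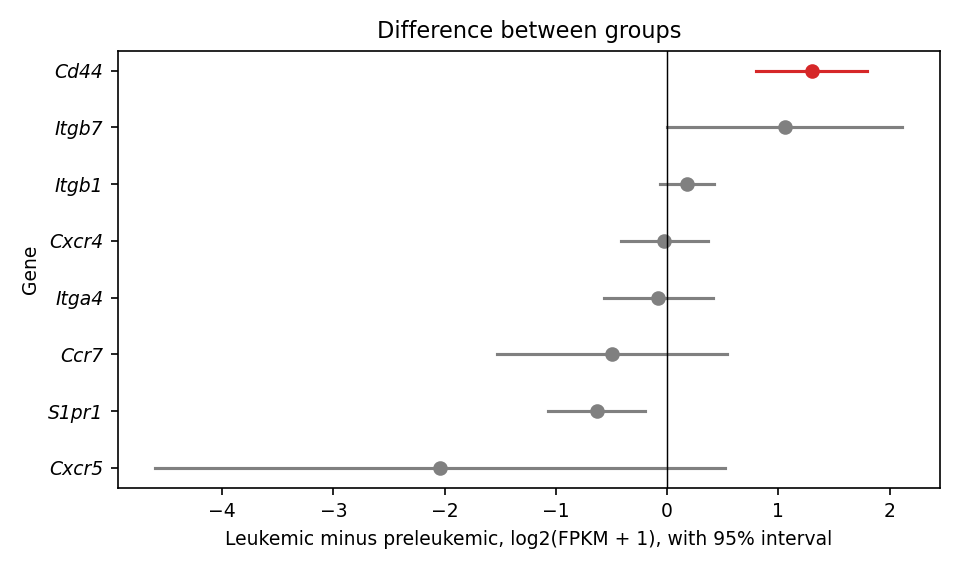
Leukemic minus preleukemic difference of the 8 tested homing receptors on the log2(FPKM + 1) scale (x axis), with 95% intervals from limma (lines). The red gene, Cd44, passed the adjusted threshold; its interval runs from 0.80 to 1.80, and that of Cxcr5 from -4.60 to 0.52.

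Cxcr4 (chromosome 1, 128588199 to 128592299) had 99.8, 93.3, 113 and 136 FPKM in preleukemic samples and 105, 90.2 and 131 FPKM in leukemic samples. The groups overlapped over nearly their whole range. Means were 111 ± 19.0 (SD, n = 4) and 109 ± 20.5 FPKM (SD, n = 3). The log2 fold change was -0.03 with a 95% interval of -0.42 to 0.37, that is from 0.748 to 1.29 times the preleukemic level on that scale (limma adjusted p = 0.926). Its level was above that of 93.1% of genes tested in the ranking of means. The genes most like it over the 7 samples were Med15 (r = 0.997) and Tmbim6 (r = 0.962), and 12 genes reached an r of 0.9.

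S1pr1 (chromosome 3, 115710433 to 115715055) had 23.5, 27.5, 28.2 and 27.2 FPKM in preleukemic and 11.9, 18.5 and 21.3 FPKM in leukemic samples. Every leukemic sample was below every preleukemic one, a separation downward that 17.1% of all genes tested showed. From 26.6 ± 2.14 (SD, n = 4) to 17.2 ± 4.85 FPKM (SD, n = 3), the log2 fold change was -0.63 (standard error 0.19, 95% interval -1.07 to -0.20), with an unadjusted p of 0.0102 and an adjusted p of 0.0599, both from limma. The call depended on the scaling and on 1 sample: with quantile normalization the adjusted p was 0.0478, with median scaling 0.0496, and without leukemic sample 3 it was 0.0408. Without leukemic sample 1 the log2 fold change was -0.40 (adjusted p = 0.0558), and without preleukemic sample 2, 3 or 4 the adjusted p was 0.131 to 0.150. Read over its single annotated transcript, S1pr1 rested on about 518 to 1129 fragments per sample. B-cell precursor marker sums were lower in the same samples (3593 to 5447 against 6632 to 8287 FPKM); their part in the S1pr1 values was not tested.

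The ratio of S1pr1 to Cxcr4, an egress against a retention receptor, was 0.235, 0.295, 0.249 and 0.20 in preleukemic samples and 0.113, 0.205 and 0.163 in leukemic samples. Here the groups overlapped, because preleukemic sample 4 lay just under leukemic sample 2. The other sphingosine 1-phosphate receptor at a high level, S1pr4, had 59.6 to 62.0 FPKM in preleukemic and 23.1, 59.1 and 43.9 FPKM in leukemic samples (log2 fold change -0.62, limma adjusted p = 0.156). The genes most like S1pr1 were Psd4 (r = 0.996) and Clk1 (r = 0.993), with 621 genes at an r of at least 0.9.

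Cxcr5 (chromosome 9, 44511787 to 44526421) had 13.4, 35.7, 30.8 and 44.1 FPKM in preleukemic and 0.892, 55.0 and 2.48 FPKM in leukemic samples. Leukemic samples 1 and 3 were below every preleukemic sample and leukemic sample 2 above every one. The highest leukemic value was 61.7 times the lowest, against 3.30 times among preleukemic samples. The spread among leukemias on the log2 scale exceeded that of 99.7% of genes tested. The log2 fold change of -2.04 (standard error 1.09, 95% interval -4.60 to 0.52) did not pass (limma adjusted p = 0.227). Without leukemic sample 2 the log2 fold change was -3.52 (adjusted p = 0.0116), and without leukemic sample 1 it was -1.08 (adjusted p = 0.516). Leukemic sample 2 also had the highest red cell and macrophage sums, 24453 and 396 FPKM; their part in its Cxcr5 value was not tested. Mature B cell marker sums were 213, 327 and 462 FPKM in leukemic samples 1 to 3. The gene named as most like Cxcr5 was Serpina3f (r = 0.990).

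Ccr7 (chromosome 11, 99144199 to 99155077) had 10.2, 11.2, 12.8 and 15.1 FPKM in preleukemic and 3.18, 10.2 and 16.5 FPKM in leukemic samples. Only leukemic sample 1 was clearly outside the preleukemic range, and leukemic sample 3 was just above it. The log2 fold change was -0.50 (standard error 0.44, 95% interval -1.53 to 0.53, limma adjusted p = 0.447), without leukemic sample 1 it was 0.09, and without leukemic sample 3 it was -0.95. Leukemic sample 1 rested on about 87.1 fragments, a counting error of 10.7%. Dap (r = 0.992) and Lax1 (r = 0.989) were most like Ccr7.

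Ccr9 (chromosome 9, 123767211 to 123783457) had 0.0874 to 0.164 FPKM in preleukemic and 0.0951, 0.262 and 0.133 FPKM in leukemic samples. These levels overlapped, were below those of every other member in each sample and stood for at most about 20 fragments in any sample, even if read over the longest annotated transcript. No difference was detectable at this depth.

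**Figure D3:**
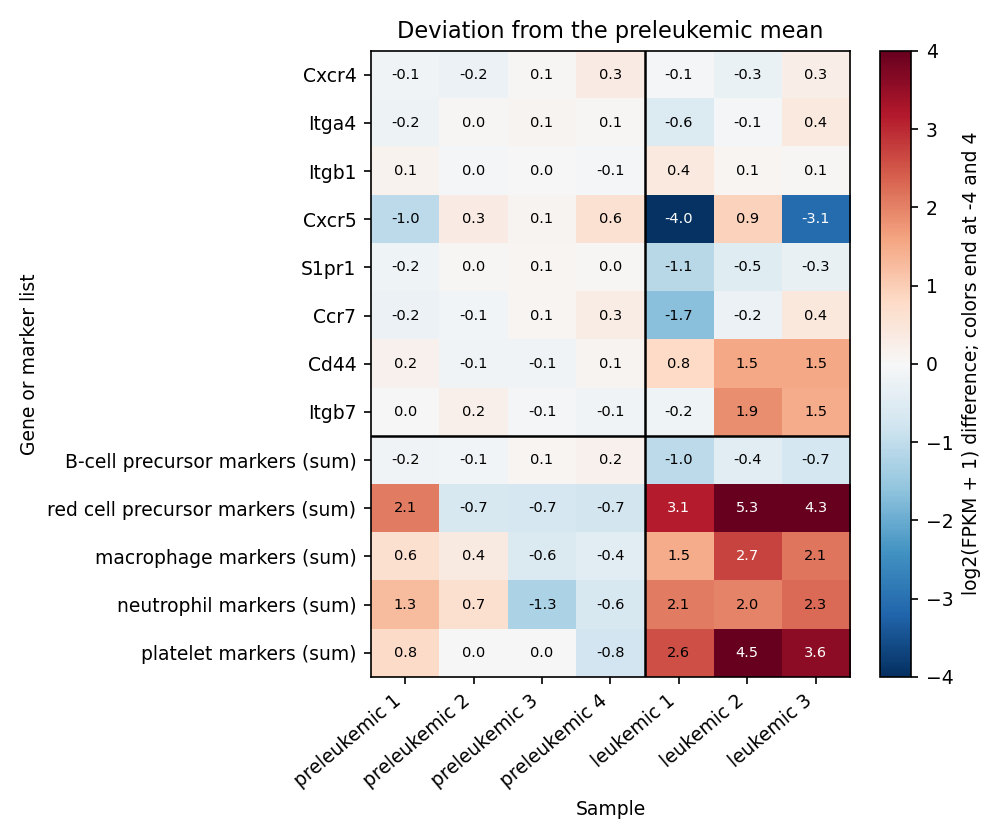
Difference of each sample from the preleukemic mean on the log2(FPKM + 1) scale (color and printed value) for the 8 tested homing receptors and, under the line, for the summed FPKM of 5 marker lists. The columns are samples, with the 4 preleukemic ones on the left. Cd44 is red in all 3 leukemic columns, and so are the red cell, macrophage, neutrophil and platelet sums, while among the leukemic columns Cxcr5 is blue in samples 1 and 3.

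Of the integrin chains, neither Itga4 nor Itgb1 passed the test. Itga4 (chromosome 2, 79255426 to 79428988) had 53.8, 63.9, 66.8 and 64.6 FPKM in preleukemic and 42.0, 58.3 and 82.3 FPKM in leukemic samples. The leukemic samples lay on both sides of the preleukemic range. The log2 fold change was -0.08 (95% interval -0.57 to 0.41, limma adjusted p = 0.812), and it turned to 0.16 without leukemic sample 1 and was -0.32 without leukemic sample 3. The listed interval of Itga4 overlaps the row of Cerkl, a gene at 0.511 to 1.59 FPKM. Ice2 (r = 0.987) and Wdr91 (r = 0.980) were most like it.

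Itgb1 (chromosome 8, 128685654 to 128733579) had 62.2, 55.1, 56.1 and 54.3 FPKM in preleukemic and 74.5, 60.3 and 59.2 FPKM in leukemic samples. The groups overlapped through preleukemic sample 1. The log2 fold change was 0.18 (95% interval -0.07 to 0.42, limma adjusted p = 0.265), and without leukemic sample 1 it was 0.07 (adjusted p = 0.595). Ybx1 (r = 0.996) and Paics (r = 0.994) were most like Itgb1.

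Itgb7 (chromosome 15, 102215995 to 102231935), the alternative partner of Itga4, had 2.44, 2.88, 2.19 and 2.08 FPKM in preleukemic and 1.98, 11.3 and 8.55 FPKM in leukemic samples. Leukemic samples 2 and 3 were far above the preleukemic range and leukemic sample 1 just below it. The log2 fold change was 1.06 (standard error 0.45, 95% interval 0.00 to 2.11), with an unadjusted p of 0.0497 and an adjusted p of 0.147 from limma. Without leukemic sample 1 it was 1.68 (adjusted p = 0.00458), and without leukemic sample 2 it was 0.66 (adjusted p = 0.321). T and NK cells also carry Itgb7, and their marker sums were 14.9, 89.3 and 82.2 FPKM in leukemic samples 1 to 3 against 21.1 to 30.5 in preleukemic samples, in the same order of low and high as Itgb7; 0 of the 8 tested T and NK cell markers were called in limma. Of these sums, Cd2 alone held 2.68, 20.7 and 59.9 FPKM in leukemic samples 1 to 3, and 5.81 to 11.7 FPKM in preleukemic samples. The sum of leukemic sample 3 thus rested mostly on Cd2. The part of T and NK cells in the Itgb7 values was not tested. The genes most like Itgb7 were Tnfrsf14 (r = 0.990) and Fam214b (r = 0.980).

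As a share of the FPKM of both beta chains, Itgb7 made up 3.77%, 4.97%, 3.76% and 3.68% in preleukemic samples, and 2.59%, 15.8% and 12.6% in leukemic samples. Itgb1 therefore remained the main beta chain message in all 7 samples. The means were 4.05% ± 0.620 (SD, n = 4) and 10.3% ± 6.88 (SD, n = 3), and the groups overlapped.

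**Figure D4:**
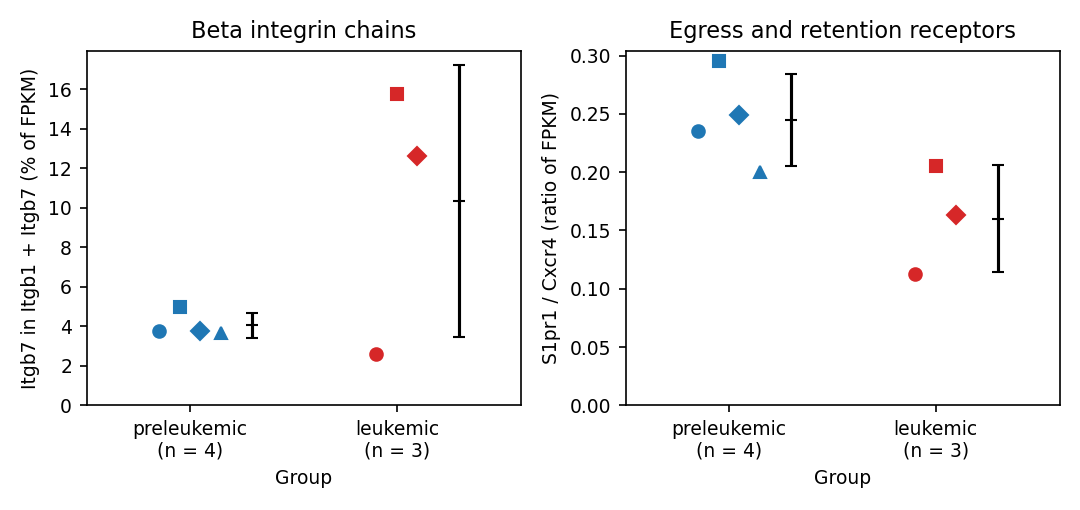
Left, Itgb7 as a percent of the summed FPKM of Itgb1 and Itgb7; right, the ratio of S1pr1 to Cxcr4 FPKM. Points are samples (blue preleukemic, red leukemic; shapes as replicates) and black marks are the group mean ± SD. Leukemic samples 2 and 3 reach 15.8% and 12.6% Itgb7, and both panels show overlapping groups.

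The members lie on 7 chromosomes. Over genes averaging at least 5 FPKM, chromosome 9, which holds Cxcr5 and Ccr9, had a median log2 fold change of 0.23 (495 genes) against -0.02 for all genes. That chromosome's median was above all genes in each leukemic sample, by 0.33, 0.28 and 0.10. Chromosome 15, with Itgb7, had a median of 0.03 (343 genes), being 0.20 above all genes in leukemic sample 3 only. The chromosomes of Cd44, Cxcr4, S1pr1, Ccr7 and Itgb1 had medians of -0.06 to -0.03.

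Around the receptors, 8 lists of 170 genes were examined, of which 119 were tested, 14 called higher and 4 called lower. Of the 119, 11 passed the filter on low values only through the leukemic samples: at their preleukemic mean in all 7 samples, their FPKM sum would have been under 10. These had to differ, and 6 of the 14 called higher were among them (Ackr1, Mfsd2b, Sphk1, Cd9, Itga2b and Fyb). The calls of these 6, and the counts of the lists that hold them, are therefore a description and no support. Among all genes tested, 14.7% were called.

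Among the ligands, 1 of 7 tested was called higher and 0 lower. Vcam1, the partner of Itga4 and Itgb1, was measured at 2.16, 1.84, 1.40 and 2.45 FPKM in preleukemic and 5.29, 23.2 and 8.86 FPKM in leukemic samples (log2 fold change 1.96, limma adjusted p = 0.0262). Vcam1 stands in the macrophage marker list as well, and its leukemic samples stood in the order of the macrophage sum (171, 396 and 270 FPKM). That sum includes Vcam1 itself, so the shared order is no support. The red cell sums had the same order, at 5304, 24453 and 11942 FPKM. The part of macrophages or red cells in the Vcam1 values was not tested. The highest of this list, Srgn, a proteoglycan core that Cd44 can bind, was at 291 ± 47.8 (SD, n = 4) and 176 ± 111 FPKM (SD, n = 3; limma adjusted p = 0.221). Icam2, an integrin ligand, was at 31.1 ± 4.69 and 22.3 ± 7.08 FPKM (adjusted p = 0.152). The chemokines that the members bind, Cxcl12, Cxcl13, Ccl19 and Ccl21a, did not reach 3 FPKM in any sample, and Ccl25, the ligand of Ccr9, had 2.55 to 4.28 FPKM.

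Of the 10 sphingosine 1-phosphate supply genes, 8 were tested, 3 were called higher and 0 lower, with 2 of the 3 (Mfsd2b and Sphk1) tested only through their leukemic levels. Mfsd2b, which exports the lipid from red cells and platelets, was at 3.50, 0.258, 0.247 and 0.150 FPKM in preleukemic and 8.17, 24.2 and 18.0 FPKM in leukemic samples (log2 fold change 3.28, limma adjusted p = 0.0165). Sphk1, the kinase that makes it, rose by 2.72 on the log2 scale (adjusted p = 0.0140). Ppap2a, a lipid phosphatase, rose by 2.02 (adjusted p = 0.0169). All 3 were highest in leukemic sample 2 and, among preleukemic samples, in sample 1, as were the red cell sums. The part of red cells was not tested. The highest of the list by level, Ppap2b, another lipid phosphatase, was at 48.5 ± 11.4 and 39.7 ± 18.6 FPKM, and Sgpl1, the lyase that destroys the lipid, at 25.0 ± 1.68 (SD, n = 4) and 21.3 ± 0.515 FPKM (SD, n = 3). Neither was called (limma adjusted p = 0.452 and 0.10).

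Of 28 other chemoattractant receptors, 10 were tested and only Ackr1 was called, a gene tested only through its leukemic levels. Ackr1, the scavenging receptor of red cells, had 2.55, 0.286, 0.0761 and 0.154 FPKM in preleukemic and 4.26, 25.2 and 12.9 FPKM in leukemic samples (log2 fold change 3.01, limma adjusted p = 0.0236). It too was highest in leukemic sample 2 and preleukemic sample 1, like the red cell sums, whose part was not tested. Cnr2, the cannabinoid receptor of B cells and the second highest of the list after S1pr4, was at 21.4 ± 6.17 (SD, n = 4) and 15.8 ± 8.99 FPKM (SD, n = 3; limma adjusted p = 0.391).

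Among 31 other adhesion molecules, 18 were tested, 4 were called higher and 0 lower, with 2 of the 4 (Cd9 and Itga2b) tested only through their leukemic levels. Cd9, a tetraspanin, rose from 1.26 ± 0.580 (SD, n = 4) to 9.67 ± 2.56 FPKM (SD, n = 3, log2 fold change 2.24, limma adjusted p = 0.00812). Its values were 1.91, 1.59, 0.808 and 0.742 FPKM in preleukemic and 6.73, 11.4 and 10.9 FPKM in leukemic samples. Cd9 was highest in preleukemic sample 1 and leukemic sample 2, as were the red cell and platelet sums, whose part was not tested. Itga2b, a platelet integrin, and Itgam, a myeloid integrin, rose by 1.84 and 1.28 on the log2 scale (adjusted p = 0.0151 and 0.0228). The fourth was Cd47. Cd24a, the highest of the list by level, was at 412 ± 78.6 and 582 ± 209 FPKM (adjusted p = 0.288).

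In the list of integrin activation and linkage, 27 of 30 genes were tested, 2 were called higher and 1 lower. Fyb, an adaptor that couples receptors to integrins and was tested only through its leukemic levels, rose by 1.47 on the log2 scale (limma adjusted p = 0.0172), and Vcl, the linker vinculin, by 0.40 (adjusted p = 0.0454). Stk4, a kinase needed for lymphocyte adhesion, fell from 106 ± 9.44 (SD, n = 4) to 77.6 ± 8.08 FPKM (SD, n = 3; adjusted p = 0.0316). Msn and Ezr, which join Cd44 and other receptors to actin, were at 322 ± 19.3 and 209 ± 12.8 FPKM in preleukemic and 328 ± 31.1 and 272 ± 70.1 FPKM in leukemic samples, and neither was called (adjusted p = 0.864 and 0.165).

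Of 35 tested genes of receptor signaling and migration, 2 were called higher and 2 lower. Arrb1, an arrestin, rose from 7.29 ± 3.04 (SD, n = 4) to 37.2 ± 5.83 FPKM (SD, n = 3, limma adjusted p = 0.00812). Its values were 11.6, 7.28, 5.45 and 4.86 FPKM in preleukemic and 32.2, 43.6 and 35.8 FPKM in leukemic samples. Arrb1 was thus highest in preleukemic sample 1 and leukemic sample 2, like the red cell sums, whose part was not tested. Rgs10, a damper of G-protein signals, had 5.61 to 8.23 FPKM in preleukemic and 67.8, 19.2 and 21.0 FPKM in leukemic samples (adjusted p = 0.0220). Rgs18, another such damper, fell by 1.54 on the log2 scale (adjusted p = 0.0449) and Git2, a scaffold of migration, fell by 0.32 (adjusted p = 0.0438). Gnai2, the G-protein chain that these receptors use, was at 335 ± 42.3 and 405 ± 31.9 FPKM and was not called (adjusted p = 0.137), nor was Coro1a, an actin regulator at 788 ± 41.7 and 867 ± 135 FPKM (adjusted p = 0.463).

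Among the 12 regulators of the receptors, 1 was called higher and 1 lower. Foxo1, a factor known to promote Ccr7 expression, fell from 164 ± 16.9 (SD, n = 4) to 86.6 ± 25.5 FPKM (SD, n = 3; log2 fold change -0.95, limma adjusted p = 0.0277). Klf3, a repressor related to the S1pr1 activator Klf2, rose from 3.39 ± 1.75 to 20.8 ± 4.20 FPKM (log2 fold change 2.38, adjusted p = 0.0109); Klf3 is also active in red cell precursors. Mif, a ligand of Cd74 and Cxcr4, was at 258 ± 38.5 and 323 ± 14.9 FPKM (adjusted p = 0.105). Klf2 itself had 9.64 to 23.3 FPKM in preleukemic and 9.55, 45.0 and 44.7 FPKM in leukemic samples and was not called (adjusted p = 0.239).

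**Figure D5:**
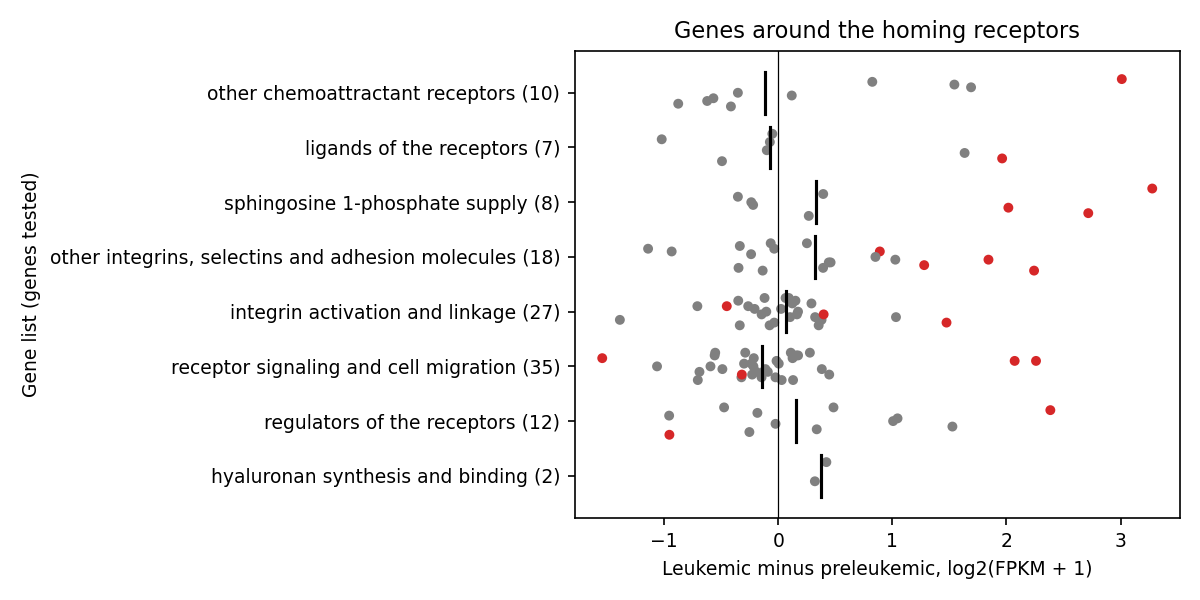
Leukemic minus preleukemic log2(FPKM + 1) difference of each tested gene (points) in 8 lists around the homing receptors, with the number tested in parentheses and the median as a black line. Red points passed the adjusted threshold in limma; the red points of the sphingosine 1-phosphate list lie at 2.02, 2.72 and 3.28.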

How the data were processed

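Per the labels, total RNA of flow-sorted BCP cells was made into stranded mRNA libraries. The submitters' processing notes name STAR 2.5.0b, Cufflinks 2.2.1, bedtools 2.17.0, Bowtie and DESeq2 and the build mm10; parameters are not given in the sources used here. The authors deposited 1 FPKM value per gene and sample with a floor of 0.01, which is no count, so the count model named in the study's methods was replaced by limma 3.58.1 (R 4.3.3) on log2(FPKM + 1) with an intensity trend, without covariates. Fold changes on that scale understate changes of low genes. The 10541 genes whose FPKM summed to 10 or more over the 7 samples were tested. The fit was tested on simulated data. Starts in the table count from 0, so 1 was added. Depth was estimated from 1566 single-transcript genes, whose low values step in whole fragments (78.4% to 83.4% within 0.15 of a whole number); errors from it cover counting only. Python 3.11.15, numpy 2.4.6, pandas 2.3.3 and matplotlib 3.10.9 were used.

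The members, gene lists, tests and alternatives were chosen with earlier results of these data known. Named are all 9 members; of each of the 8 pathway lists the 2 genes highest in mean FPKM and, among called genes without overlap, up to 3 rises and 3 falls; of each of 10 marker lists the 3 highest; and the 2 genes most correlated with each tested member. A few genes that this rule names are not reported here. Other genes named were chosen after their values were seen. Older symbols were matched through RefSeq (Ppap2a, Ppap2b). Ighd, Ahsp and Ly6g were not used here. No protein sequence was used.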

Additional observations from a re-analysis of the deposited data

Results flagged for a closer look

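In the 4 preleukemic samples, 57 values (members, ratios, named list genes and marker sums) were examined by Dixon's ratio for a sample far from the other 3, and 6 exceeded its 95% critical value; chance alone gives about 1 in 20. The Itgb7 share of both beta chains stood apart in preleukemic sample 2, at 4.97% against 3.68% to 3.77%. The ratio of Itgb1 to Itga4 stood apart in preleukemic sample 1, at 1.16 against 0.839 to 0.862. Preleukemic sample 1 was also alone in its red cell marker sum (2539 FPKM against 360 to 381), Ackr1 (2.55 FPKM against 0.0761 to 0.286), Mfsd2b (3.50 FPKM against 0.150 to 0.258) and Ppap2a (3.70 FPKM against 0.938 to 1.23). The groups of 3 leukemic samples were not examined this way.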

How the results depend on the processing

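The alternatives were 2 pseudocounts, 2 filters, 2 scalings, limma without the trend, sample weights, a replicate block and each sample left out; leaving out preleukemic sample 1 and leukemic sample 2 together was added after seeing the data. Of members called higher, the count of 1 became 0 without the filter (Cd44 adjusted p = 0.0512), 0 at an FPKM sum of at least 70 (where Cd44 is not tested), 2 with sample weights, 0 with the block and 0 to 2 with 1 sample left out (0 without preleukemic sample 3 or 4, 2 without leukemic sample 1). Of members called lower, the count of 0 became 1 with quantile normalization, with median scaling and without the pair of samples (Cxcr5), and 0 to 1 with 1 sample left out (1 without leukemic sample 2 or 3). List genes called higher (14) numbered 4 at the higher sum, and 3 to 20 with 1 sample left out (fewest without preleukemic sample 3 or 4, and 8 without preleukemic sample 2). List genes called lower (4) numbered 0 without the filter, 8 with quantile normalization, 2 without the trend, and 0 to 9 with 1 sample left out (2 without preleukemic sample 1, 0 without any other preleukemic sample, and 9 and 8 without leukemic samples 2 and 3). Over all genes, 893 higher and 660 lower became 428 and 278 without the filter, 548 and 403 at the higher sum, 754 and 907 with quantile normalization, and 107 to 870 and 42 to 750 with 1 sample left out, both lowest without preleukemic sample 4, then 3, then 2, and 321 lower without preleukemic sample 1.

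With the replicate number as a replicate block, 0 members, 0 list genes and 0 genes of all were called in either direction; preleukemic sample 4 has no partner and drops out, and Cd44 had an adjusted p of 0.145. Deviations of same-numbered samples from their group means had correlations of 0.03, 0.05 and -0.09. Samples with different numbers were not compared, so these values cannot decide whether the numbers pair the samples.

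Log2 fold changes turned in direction for Cxcr4 with the block (0.078), without preleukemic sample 4 (0.078), without leukemic sample 2 (0.099) and without the pair (0.055), for Ccr7 without leukemic sample 1 (0.086) and for Itga4 without leukemic sample 1 (0.157). With 1 sample left out, Cxcr4 ranged from -0.166 to 0.099, Ccr7 from -0.949 to 0.086 and Itga4 from -0.321 to 0.157. Cd44, Cxcr5, S1pr1, Itgb1 and Itgb7 kept their direction in every alternative in which they were tested. The causes were not tested.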

Other observations

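Other receptors and adhesion genes, chosen after their values were seen, also varied among the 3 leukemic samples. Cxcr3, a chemokine receptor of activated lymphocytes, had 22.3 FPKM in leukemic sample 1 and near 1 FPKM in both others, against 0.103 to 0.577 in preleukemic samples (limma adjusted p = 0.197). Gpr183, the oxysterol receptor that positions B cells in the spleen, had 8.67, 0.423 and 5.08 FPKM in leukemic and 0.267 to 0.750 in preleukemic samples (adjusted p = 0.121). Rdx, an actin linker, had 6.25, 68.1 and 25.4 FPKM in leukemic and 52.1 to 69.7 in preleukemic samples (adjusted p = 0.181). Selplg, the ligand of P-selectin, had 7.79, 34.5 and 24.5 FPKM in leukemic and 37.3 to 49.0 in preleukemic samples, without overlap (adjusted p = 0.113). None of the 4 passed the threshold in limma. Cxcr3 and Gpr183 had preleukemic means of 0.422 and 0.510 FPKM and passed the filter on low values only through the leukemic samples. Their values are therefore a description and no support.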
